A study of Mus musculus with 7 samples.

Results

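Sirpa, Fcgr2b, Cd163, C1qb and Lipa are 5 genes with which macrophages bind, restrain, opsonise or digest what they engulf, and 6 differentially methylated regions (DMRs) of airway macrophages (AMs) were assigned to them. The table they come from holds 1404 DMRs with a lower and 522 with a higher methylation level in Scnn1b-Tg AMs, and the 6 are all rows whose assigned gene is one of the 5. The genes were chosen by the mean methylation levels of these rows in both genotypes, and each row is itself a region called different between genotypes, so the levels below are a description and were not tested. The assay was tWGBS, bisulfite sequencing of the whole genome after tagmentation, in AMs (CD45+ Siglec-F+ CD11c+) sorted from lungs of 6-week-old female mice on a C57BL/6 background, without stimulation. The first group was Scnn1b-Tg mice, 3 samples, which overexpress the β-subunit of the epithelial sodium channel in airway epithelium under the club cell secretory protein promoter and develop mucus obstruction. The second was wild-type (WT) mice, 4 samples. The labels do not say whether a sample was 1 mouse or a pool.

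The table gives 1 mean methylation level per region and genotype, the authors' mean as a fraction from 0 (no cytosine of the CpGs methylated) to 1 (all methylated). It gives no value per sample and no read coverage, so the spread between samples and the depth behind each level are unknown, and no interval or order of neighbouring values can be tested. Its header does not name the genotypes. The first level column was taken as Scnn1b-Tg because it was the lower column in 1404 regions, the direction the study describes for most DMRs, and in 9 of 9 regions assigned to 7 other genes whose direction the study names. If the columns were the other way round, every direction below would turn. In bulk AMs, a change of level within the cells and a change in the mixture of cells cannot be told apart.

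Macrophages clear particles in steps. Scavenger receptors and receptors for antibody or complement bind the target, inhibitory receptors set the threshold for engulfment, and lysosomal hydrolases digest the cargo. Sirpa encodes SIRPα, the inhibitory receptor that reads CD47 as a self signal on target cells. Fcgr2b encodes FcγRIIB, the inhibitory receptor for the Fc part of IgG, and Cd163 encodes the scavenger receptor for complexes of haemoglobin and haptoglobin. C1qb encodes the B chain of C1q, which starts the classical complement pathway and tags dying cells and immune complexes, and macrophages are a main source of it. Lipa encodes lysosomal acid lipase, which hydrolyses the cholesteryl esters and triglycerides of engulfed lipoproteins and cells. Methylation of CpGs is typically low at active promoters and enhancers and high over most of the remaining genome, and levels in between are common where only some cells or some alleles carry the mark.

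The measured sequence of each region is given here because its CpGs are what the levels average. The strand is the plus strand of GRCm38 (mm10), all letters are lower case except CpGs, and regions longer than 300 bases are given by 300 bases chosen where CpGs were most numerous. A region ends in the table on the C of its last CpG, and 1 base was added to show the G. Fcgr2b is shown over chr1:170962947-170963246, the upstream region of Sirpa over chr2:129574722-129575021, the intronic region of Sirpa over chr2:129614556-129614684, Cd163 over chr6:124288727-124288802, C1qb over chr4:136884751-136885050 and Lipa over chr19:34518048-34518255.
Fcgr2b: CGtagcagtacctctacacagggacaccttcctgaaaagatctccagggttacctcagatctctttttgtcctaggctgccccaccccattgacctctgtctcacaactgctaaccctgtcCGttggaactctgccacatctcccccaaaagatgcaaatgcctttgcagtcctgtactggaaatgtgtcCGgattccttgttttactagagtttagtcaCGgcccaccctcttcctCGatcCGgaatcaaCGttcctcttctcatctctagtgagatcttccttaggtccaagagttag
Sirpa upstream: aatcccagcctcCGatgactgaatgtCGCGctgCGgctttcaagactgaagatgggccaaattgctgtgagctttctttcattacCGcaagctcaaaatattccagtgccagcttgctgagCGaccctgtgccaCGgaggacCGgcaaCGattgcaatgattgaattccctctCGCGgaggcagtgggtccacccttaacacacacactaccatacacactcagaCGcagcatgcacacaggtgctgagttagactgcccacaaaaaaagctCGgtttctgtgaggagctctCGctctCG
Sirpa intronic: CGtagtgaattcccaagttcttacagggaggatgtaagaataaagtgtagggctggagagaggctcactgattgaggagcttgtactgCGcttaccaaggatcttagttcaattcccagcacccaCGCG
Cd163: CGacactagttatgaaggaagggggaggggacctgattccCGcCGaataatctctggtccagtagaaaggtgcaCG
C1qb: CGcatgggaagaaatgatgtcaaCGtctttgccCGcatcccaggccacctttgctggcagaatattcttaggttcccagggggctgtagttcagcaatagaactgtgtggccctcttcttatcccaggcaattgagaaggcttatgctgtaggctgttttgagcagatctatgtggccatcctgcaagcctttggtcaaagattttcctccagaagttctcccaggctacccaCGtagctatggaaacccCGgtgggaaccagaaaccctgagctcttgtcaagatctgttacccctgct
Lipa: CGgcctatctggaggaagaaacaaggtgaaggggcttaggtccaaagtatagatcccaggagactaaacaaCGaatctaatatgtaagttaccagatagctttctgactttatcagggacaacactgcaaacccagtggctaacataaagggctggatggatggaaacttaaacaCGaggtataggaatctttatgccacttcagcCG

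The methylation level was lower in Scnn1b-Tg AMs in 5 of the 6 regions, covering all 5 genes, and higher in 1, the upstream region of Sirpa. Of all DMRs of the table, 72.9% were lower in Scnn1b-Tg AMs, so a count of 5 of 6 is close to the background of the table. In the 5 lower regions the level lay between 0.461 and 0.619 in Scnn1b-Tg AMs, with a median of 0.508, and between 0.697 and 0.829 in WT AMs, with a median of 0.760. Over all 1404 lower regions the median was 0.570 in Scnn1b-Tg and 0.829 in WT AMs. The WT level was under that median in the other lower regions, and C1qb lay at it. The median difference of the 5 regions was -0.236, beside -0.238 over all lower regions. Some DMRs of the table had nearly equal levels: the smallest absolute difference was 0.0025 among lower and 0.0044 among higher regions. Such regions were kept in the backgrounds and ranks given here.

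**Figure D1:**
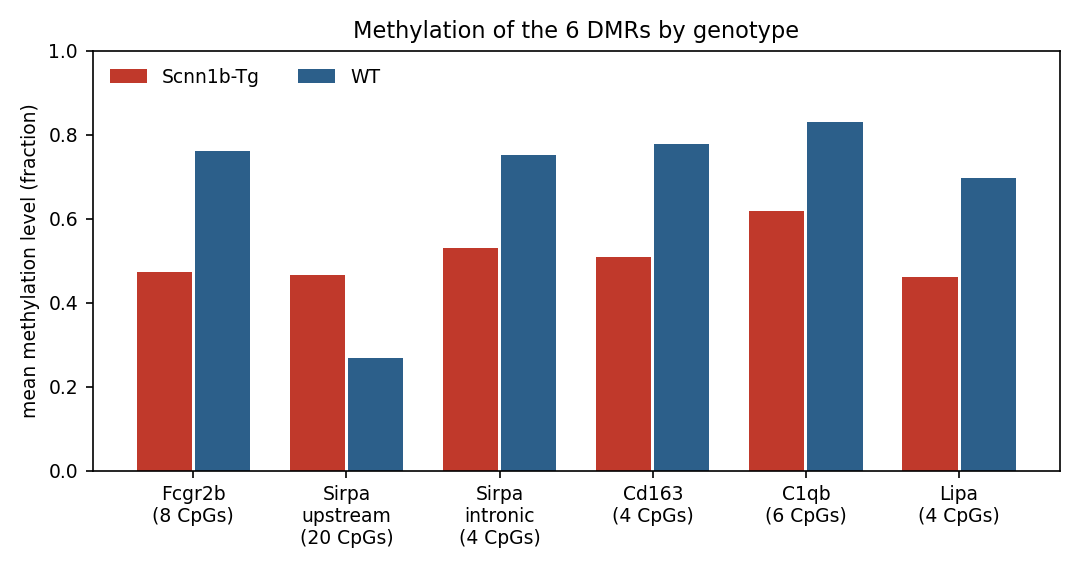
Mean methylation level (fraction, y axis from 0 to 1) of the 6 DMRs of Fcgr2b, Sirpa, Cd163, C1qb and Lipa, with the number of CpGs in each. Bars are the authors' means for Scnn1b-Tg (red, left) and WT (blue, right) AMs and have no error bar because the table holds no value per sample. The Scnn1b-Tg bar is the shorter one in 5 regions and the taller one in the upstream region of Sirpa (0.467 in Scnn1b-Tg against 0.268 in WT).

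Of the inhibitory receptors, Fcgr2b had the largest difference among the 6 regions. Its level was 0.472 in Scnn1b-Tg and 0.760 in WT AMs over 8 CpGs, a difference of -0.29. Of the other lower DMRs of the table, 82.5% had a smaller absolute difference and 246 had a larger one. The unmethylated share was 0.528 in Scnn1b-Tg and 0.240 in WT AMs, 2.20 times as high. The region (chr1:170962947-170963289, 343 bp) lies 12.8 kb downstream of the transcription start site (TSS), in intron 6 of 7 of Fcgr2b by the table and of transcript Fcgr2b-201 in GENCODE. Another annotated transcript of Fcgr2b starts nearer, 1.32 kb from the region. The region overlaps no exon and no UTR and ends 36 bp from the nearest exon. A group of 4 CpGs falls at positions 221, 238, 243 and 252 of the region, the closest pair 5 bp apart, while the first CpG stands 121 bp from the next.

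Fcgr2b lies among other genes for Fc receptors and related proteins. The next DMR was assigned to Fcrla, which encodes an Fc receptor-like protein of B cells, 20.8 kb away. It held 16 CpGs, and its level was 0.738 in Scnn1b-Tg and 0.921 in WT AMs, the same direction. No DMR was assigned to Fcgr3 or Fcgr4, which encode activating IgG receptors, or to Fcrlb, all within 100 kb of Fcgr2b. On the other side the next DMR was 1.28 Mb away, at Atp1a4.

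By the table's assignment Sirpa was the only one of the 5 genes with more than 1 DMR, and its DMRs differed in opposite directions. The upstream region (chr2:129574687-129575149, 463 bp) is distal intergenic, 17.7 kb before the TSS. The nearest TSS of any annotated gene was that of the antisense gene Gm14041, 8.62 kb away, and Sirpa was the nearest protein-coding one. By that nearest TSS, or by a distance of at most 10 kb, the region was not one of Sirpa. Its level was 0.467 in Scnn1b-Tg and 0.268 in WT AMs, a difference of 0.20. It held 20 CpGs, and 94.8% of the other DMRs that were higher in Scnn1b-Tg AMs held fewer. Its difference was of modest size, with 33.2% of the other higher DMRs showing a smaller one. By the ratio of the levels it ranked higher, at 77.7%, beside a low WT level.

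The intronic region of Sirpa (chr2:129614556-129614683, 128 bp) is 21.4 kb past the TSS, in intron 3 of 8, and 6.00 kb from the nearest start of any annotated Sirpa transcript. Its level was 0.531 in Scnn1b-Tg and 0.752 in WT AMs over 4 CpGs, a difference of -0.22. Of the other lower DMRs, 34.1% had a smaller difference. The regions lie 39.4 kb apart, 1 on each side of the TSS. Their levels were 0.467 upstream and 0.531 in the intron in Scnn1b-Tg AMs, and 0.268 upstream and 0.752 in the intron in WT AMs. The smaller gap in Scnn1b-Tg AMs follows from the calls, since the region with the low WT level was called higher and the other lower. Of the 233 genes with at least 2 DMRs, 70 (30.0%) had both directions. Of 122 pairs of neighbouring DMRs within 50 kb, 35 (28.7%) differed in opposite directions, so such a pair is not rare in the table. The next DMR before Sirpa was at the promoter of Il1a, 266 kb away, and the next one after it at Slc23a2, 2.50 Mb away.

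**Figure D2:**
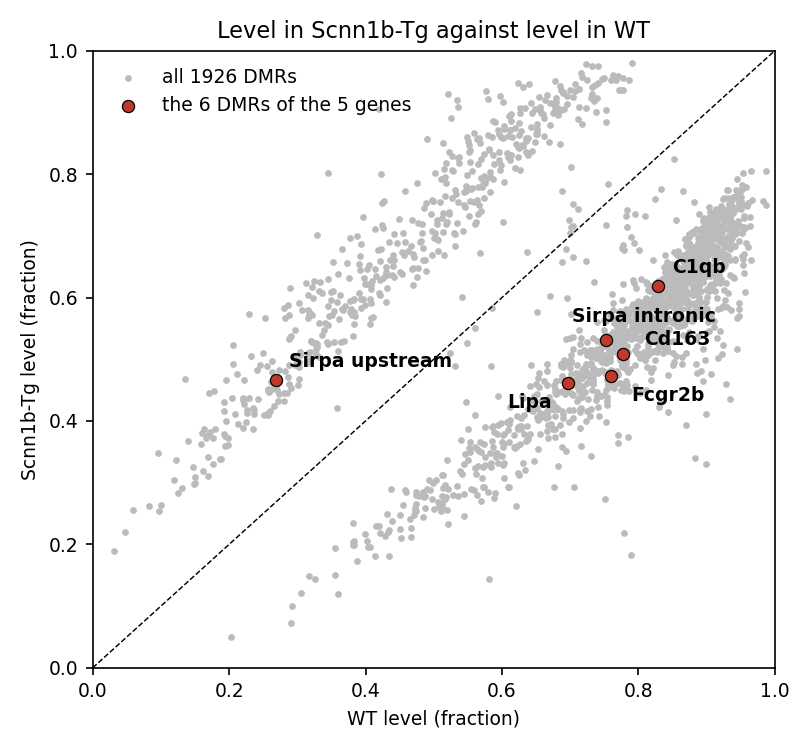
Methylation level in Scnn1b-Tg AMs (y axis, fraction) against the level in WT AMs (x axis, fraction) for all DMRs of the table (grey) and the 6 DMRs of the 5 genes (red), with the dashed line of equal levels. Of the red points, 5 lie below the line among the lower DMRs, Fcgr2b farthest from it, and the upstream region of Sirpa lies above it at a WT level of 0.268.

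The DMR of the scavenger receptor gene Cd163 had the next largest difference after Fcgr2b. Its level was 0.508 in Scnn1b-Tg and 0.778 in WT AMs, a difference of -0.27, and 74.0% of the other lower DMRs had a smaller one. The region (chr6:124288727-124288801) is distal intergenic, 15.9 kb before the TSS, and is the shortest of the 6 at 75 bp, with 4 CpGs. All 75 bases are marked as repeats in the reference (soft-masked), as were all bases of 34.3% of the lower DMRs and 17.8% of the higher ones. Short reads from repeats can align to more than 1 copy, and the part of this in the level was not tested. The nearest TSS of any annotated gene was that of the pseudogene Gm6308, 9.06 kb away, and Cd163 was the nearest protein-coding one. Neighbouring DMRs were far, 919 kb away at Vmn2r20 and 1.28 Mb away at Vwf.

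The DMR of C1qb had the highest levels of the 6 and the smallest difference among the lower regions. Its level was 0.619 in Scnn1b-Tg and 0.829 in WT AMs over 6 CpGs, a difference of -0.21, and 24.7% of the other lower DMRs had a smaller one. Among lower DMRs of the promoter class this share was 43.8%. The unmethylated share was 0.381 in Scnn1b-Tg and 0.171 in WT AMs, 2.23 times as high, close to the ratios at Cd163 (2.21) and Fcgr2b. The table puts the region (chr4:136884751-136885123, 373 bp) in the promoter class at 1 to 2 kb, yet it lies 1.05 kb downstream of the TSS, in intron 1 of 2 of C1qb-201, 920 bp from the nearest exon. Its CpGs fall in separate groups, 200 bp apart at the widest gap.

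C1q is built from the products of C1qa, C1qb and C1qc, which stand next to each other in the genome. The C1qb region was the only DMR assigned to any of them. On one side the next DMR was 2.20 Mb away, at Man1c1. On the other side it was 88.2 kb away, at Epha8, and its level was higher in Scnn1b-Tg AMs (0.604, 0.362 in WT). None of the 300-base promoter windows of RefSeq (250 bases before to 50 after a gene's start) for C1qb, C1qc, Fcgr2b, Cd163 or Lipa overlapped a DMR. These windows held 6 CpGs for C1qb and Fcgr2b, 7 for Lipa, 3 for C1qc and 2 for Cd163, beside a median of 7 over 32851 promoters.

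The DMR of Lipa, the lysosomal gene, had the lowest levels of the 5 lower regions in both genotypes. Its level was 0.461 in Scnn1b-Tg and 0.697 in WT AMs over 4 CpGs, a difference of -0.24, and 48.5% of the other lower DMRs had a smaller one. The region (chr19:34518048-34518254, 207 bp) lies 9.22 kb downstream of the TSS in intron 3 of 9, away from exons and repeats, and 7.07 kb from the nearest start of any annotated Lipa transcript. The next DMRs were assigned to Fas, the death receptor gene, 172 kb away (0.478 in Scnn1b-Tg, 0.709 in WT), and to Kif20b, 559 kb away (0.522 in Scnn1b-Tg, 0.833 in WT). Both were lower like Lipa.

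**Figure D3:**
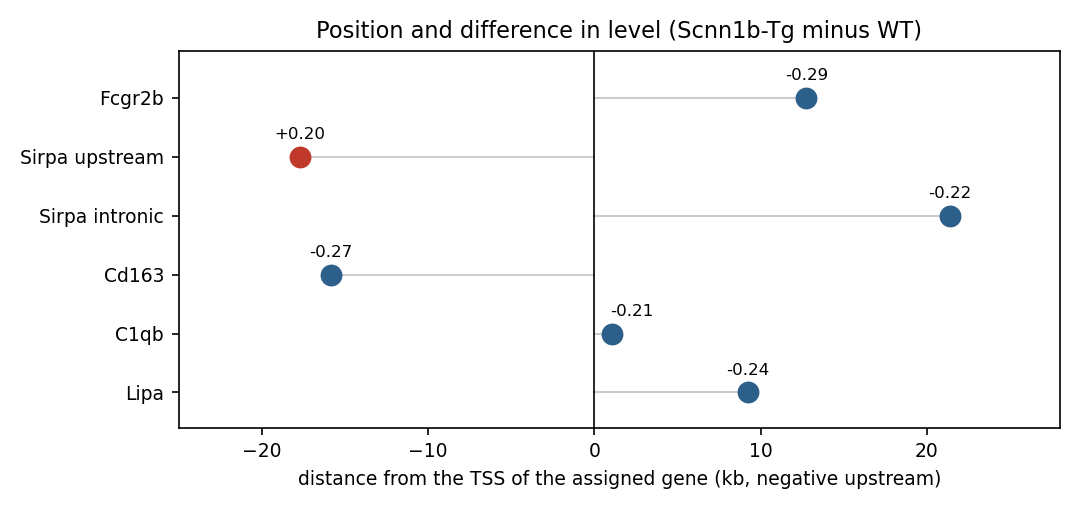
Distance of each DMR from the TSS of its gene (x axis, kb, negative upstream), with the difference in level (Scnn1b-Tg minus WT, fraction) printed above each point; blue points were lower and the red point was higher in Scnn1b-Tg AMs. The 2 upstream regions (Sirpa, at -17.7 kb, and Cd163, at -15.9 kb) differ in opposite directions, and the 4 regions downstream of a TSS were all lower. Of all DMRs 72.9% were lower, so a count of 4 of 4 is close to the background.

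The table's position and CpG number were among the values in view when the genes were chosen, and they varied among the regions. By the table's classes, 3 regions are intronic, 2 distal intergenic and 1, that of C1qb, promoter, beside 26.6%, 57.7% and 10.96% of all DMRs in these classes. On the reference the C1qb region is intronic too. No region overlaps an exon or a UTR, classes that held 4.05% of all DMRs together. Over the 6 regions the density was between 1.61 CpGs per 100 bp at C1qb and 5.33 at Cd163, beside medians of 2.92 in lower and 3.72 in higher DMRs. A number of 4 CpGs, as in the DMRs of Cd163, Lipa and the Sirpa intron, is the smallest in the table and was found in 826 DMRs (42.9%). GC content lay between 44.0% at Lipa and 53.8% at the upstream region of Sirpa. The 46 CpGs of the table equalled those of the reference in each of the 6 regions.

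**Figure D4:**
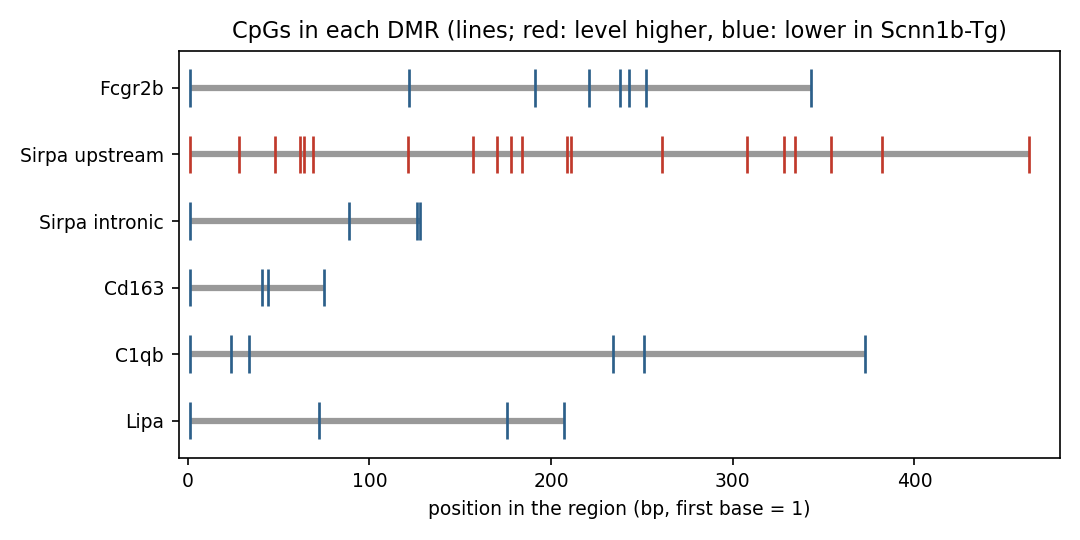
CpGs (vertical lines) along each of the 6 DMRs (grey bars), with the position in the region in bp on the x axis counted from its first base; red lines are the region with the higher level and blue lines those with the lower level in Scnn1b-Tg AMs. The 20 CpGs of the upstream Sirpa region are spread over 463 bp, while the other regions hold between 4 and 8, with a gap of 200 bp inside C1qb.

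Letters known as binding motifs of macrophage transcription factors were searched on both strands of the whole regions. The motifs were GAGGAA (PU.1), TTGCNNAA (C/EBP), TGANTCA (AP-1), AANNGAAA (IRF), TTCNNNGAA (STAT), TTCNNNNGAA (STAT6), CACGTG (E-box) and TGCTGA (MAF). GAGGAA occurred in 3 regions, all in introns and all lower in Scnn1b-Tg AMs, with 2 copies at Fcgr2b, 2 at C1qb and 1 at Lipa. Of windows of the same length around all DMRs, 29.5%, 32.1% and 19.2% held it, in the order Fcgr2b, C1qb and Lipa. At Fcgr2b, 1 copy (as TTCCTC on the printed strand, positions 233 to 238) ends on the cytosine of a CpG, and the other (positions 254 to 259) starts right after a CpG, both visible in the sequence above. The copies at C1qb and Lipa lie between 9 and 23 bases from the nearest CpG. TGCTGA occurred in 2 copies in the upstream region of Sirpa (29.2% of windows) and in 1 at C1qb (24.5%), where it overlaps the only match of TTGCNNAA (16.4%). The other 5 motifs had no match in the 6 regions, and between 1.66% (E-box) and 51.7% (IRF) of windows held each. A match is a run of letters and not a measured site.

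The wider clearance machinery was described with 6 lists of 136 genes, all matched by symbol, which include the 5 genes. Of these, 11 genes (8.09%) had at least 1 DMR, beside 6.07% of all protein-coding RefSeq genes, and 5 of the 11 are the genes the lists were built around. The 12 regions of the 11 genes had a median difference of -0.229, with 8 lower and 4 higher in Scnn1b-Tg AMs, beside a median of -0.218 over all DMRs. The gene assigned to a region depends on the rule. When the nearest TSS of the GENCODE annotation was used, 6 genes of the lists had a DMR. With an overlap or a distance of at most 10 kb, 12 had one. The share of all genes was not computed under these rules, so their counts, here and below, have no background. Cd163 had none under either of these rules, and Sirpa had only its intronic region. The counts of single lists below follow the table's assignment, the rule behind the 6.07%. A list that holds any of the 5 genes has a DMR by choice. Its share, like the 8.09%, therefore cannot be read as a result against the 6.07%. Outside the 5 genes, 6 genes of the lists had a DMR.

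Among 20 Fc and complement receptors and their signalling partners, the table assigned a DMR to Fcgr2b and to Itgax, which encodes CD11c (10.0% of the list). Its level was 0.459 in Scnn1b-Tg and 0.707 in WT AMs, over 4 CpGs at 2.01 kb from the TSS. CD11c was also a marker used to sort the AMs. By overlap or a distance of at most 10 kb, 4 genes of this list had a DMR. The others were C5ar1, a receptor of complement fragment C5a, through the DMR of C5ar2 (0.631 in Scnn1b-Tg, 0.426 in WT), and Fcgrt, the neonatal Fc receptor, through that of Rcn3 (0.667 in Scnn1b-Tg, 0.392 in WT), both higher in Scnn1b-Tg AMs. The list of 15 inhibitory receptors and their partners does not hold Fcgr2b, which was counted with the Fc receptors. In this list Sirpa alone had DMRs (6.67%). Cd47, the ligand of SIRPα, and Ptpn6 and Ptpn11, the phosphatases it recruits, had none. Among 20 scavenger and endocytic receptors the table assigned a DMR to Cd163 alone (5.00%), and none to Marco, Msr1 or Cd36. Under both reference rules the 1 gene of this list with a DMR was instead Mrc1, the mannose receptor, through the DMR of Mir511 (0.631 in Scnn1b-Tg, 0.859 in WT). None of 20 genes of apoptotic cell uptake had one, among them Mertk and Axl, a count that the 6.07% over all genes leaves near the background.

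Complement components and regulators had DMRs at 5 of 28 genes (17.9%, beside 6.07% of all protein-coding genes), with both directions. Of these, C1qb was in the list by choice and 4 were other genes. By overlap or a distance of at most 10 kb 4 of the 28 had one, and by the nearest TSS 1. Beside C1qb, C7 of the membrane attack complex was lower (0.594 in Scnn1b-Tg, 0.845 in WT), as was Cr2, the complement receptor of B cells (0.598 in Scnn1b-Tg, 0.889 in WT), whose DMR lies 105 kb before its TSS. The region assigned to C4b was higher (0.866 in Scnn1b-Tg, 0.595 in WT). It lies at -14.6 kb from the TSS of C4b, in an intron that the table annotates to another gene, named C4a by RefSeq, and under both reference rules C4b had no DMR. The region assigned to Masp2, a protease of the lectin pathway, was higher (0.799 in Scnn1b-Tg, 0.549 in WT). The table classes it as 3′ UTR and does not name the gene of that UTR. Of 33 genes of lysosomal hydrolysis and cholesterol handling, 2 had a DMR (6.06%), Lipa among them.

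Cell type markers bear on these genes because C1qb and Cd163 are themselves markers of interstitial macrophages. Of 14 AM markers, the table assigned a DMR to Itgax and Chil3 (14.3%, beside 6.07% of all protein-coding genes), and both were lower in Scnn1b-Tg AMs (Chil3 with 0.294 in Scnn1b-Tg, 0.676 in WT). Under both reference rules 3 AM markers had one, among them Mrc1. Of 16 markers of monocytes and interstitial macrophages, 5 had one by the table (31.2%), and C1qb and Cd163 are 2 of these by choice. By overlap or a distance of at most 10 kb 4 of the 16 had one, and by the nearest TSS 3. Cd163 was not among them under either rule. The 5 by the table were C1qb, Cd163 and Ly6c2, lower in Scnn1b-Tg AMs, and F13a1 and Ms4a4c, higher. The AMs were sorted as Siglec-F+ CD11c+, and interstitial macrophages lack Siglec-F. A gate does not measure which other cells a sample still held. The part of other cells in the levels of C1qb and Cd163 was not tested.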

How the data were processed

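tWGBS of sorted AMs from 3 Scnn1b-Tg and 4 WT samples was analysed. The processing notes of the submitters name Trimmomatic 0.36, BWA 0.7.8, Picard and MethylDackel and the build mm10; the study's methods state that duplicates were marked, profiles smoothed with bsmooth and DMRs called with DSS. Smoothing shares reads between neighbouring CpGs, so smoothed CpGs of a region are not separate measurements. A smoothed level can also draw on CpGs outside the region. The table does not state whether its levels were taken before or after smoothing. The levels are deposited fractions, 1 mean per region and genotype, and the authors also deposited the CpG number, length, nearest gene, annotation class and distance to the TSS. Coverage is not in the table, so depth is unknown. For the tool that annotated the DMRs, none was given in these sources. A further part of the table holds the authors' difference and area statistic, which are results of their comparison and were not used; 0 columns of other samples were left out.

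Differences were recomputed as Scnn1b-Tg minus WT level and ranked among DMRs of the same direction with Python 3.11.15 and pandas 2.3.3, as the share of the other DMRs with a smaller absolute value. Reference CpGs, repeats, GC content and motifs were read from GRCm38.p6 with pysam 0.24.0 and samtools 1.23.1, transcripts from GENCODE vM21, and promoters from RefSeq (GRCm38.p6), where 4 of the 5 genes matched (Sirpa was the exception). All DMRs start and end on a reference CpG (100%). Ranking and motif search were tested on simulated data. The genes and gene lists were chosen with earlier results of these data known. The text names every DMR of the 5 genes, the list genes with a DMR except 1 that is not reported here, the next DMR on each side, and family neighbours within 100 kb; list genes without a DMR are examples chosen after the result was seen. No test was run because the table has 1 value per genotype.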

Additional observations from a re-analysis of the deposited data

How the results depend on the processing

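The alternatives gave 34 values. Requiring an absolute difference of at least 0.2 left 5 of 6 regions, with all 5 lower in Scnn1b-Tg AMs, a median difference of -0.236 and the upstream region of Sirpa left out, at 0.199. Requiring at least 5 CpGs left 3 regions, 2 of them lower, since the DMRs of Cd163, Lipa and the Sirpa intron hold 4. List genes with a DMR numbered 11 by the table, 10 within 50 kb of the TSS, 12 by an overlap or a distance of at most 10 kb and 6 by the nearest TSS. Of 18 alternative ranks, 1 moved by more than the SD over the 6 regions, that of the upstream region of Sirpa by ratio (77.7%, against 33.2% by difference). Extending the regions by 50 bases on each side added a GAGGAA match and an AP-1 match at the Sirpa intron and an E-box match at Cd163.

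Ranking by the area statistic was planned and not run: that column is a result of the authors' comparison. No paired analysis was possible because the table holds 1 mean per genotype, so leaving out a replicate was not possible either. Without values per sample or coverage, no difference was set against the spread between samples, and the order of regions with similar levels was not tested. Whether the deposited levels were smoothed is not stated, and short regions hold few CpGs.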
